A study of Mus musculus with 6 samples.

Results

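The peaks described here are the stronger wild-type CTCF sites that were called in neither of 2 BRD2-null clones. The wild-type list of 40271 peaks was ranked by the authors' fold enrichment (read as such from the layout of the list and its values), and the stronger 20135 peaks, with an enrichment of at least 22.7, were kept. A peak was a member when no peak of clone D and no peak of clone C8 overlapped it by 1 bp or more. There were 419 members, 2.08% of the 20135 peaks (95% exact binomial interval 1.89 to 2.29). The members were chosen by the enrichment in wild type and by the overlaps with the clones, so both are given as a description with no test.

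The data are ChIP-seq (sequencing of DNA bound by an immunoprecipitated protein) for CTCF in 3 libraries of G1E-ER4, a GATA1-null mouse erythroblast line in which GATA1 is supplied as a fusion with the estrogen receptor's ligand-binding domain. The wild-type G1E-ER4 cells, the D_Brd2KO clone and the C8_Brd2KO clone all lack the endogenous GATA1 and carry the fusion, and all were given 100 nM estradiol for 24 hours, which activates the fusion protein. In D_Brd2KO and C8_Brd2KO, CRISPR/Cas9 editing left no detectable BRD2. Each is a single clonal sub-line with 1 library, and wild type has 1 library, so genotype, clone and library cannot be told apart, and no test between genotypes was possible. The libraries' depth is unknown, because the lists give no read totals; intervals cover counting error only.

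CTCF binds a long DNA motif through its zinc fingers and, together with the cohesin ring, holds the bases of chromatin loops and the borders of chromatin domains. BRD2 belongs to the BET family, whose bromodomains read acetylated histones, and it can be found at sites that CTCF occupies. GATA1 is the transcription factor that drives erythroid maturation, and its activation by estradiol starts that programme in this line. A peak caller reports a site only where reads exceed its background model, so a site missing from a list was not called there, which is not a measurement of absent binding.

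Most members were weak among the stronger peaks. Their enrichment had a median of 25.77 with quartiles of 23.79 and 27.75, and 355 of the 419 lay below 30. The −log10 p in the authors' lists ran from 7.76 to 56.98 with a median of 12.4. It was at least 20 in 31 members and below 10 in 46. The authors' false discovery rate was at most 0.05 in 312 members and reached 0.190 in the highest. The 5 members just inside the enrichment limit all had a value of 22.77, and the next 5 peaks absent from both clones below it had 22.49 to 22.61, so nothing separated the members from the peaks under the limit.

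**Figure D1:**
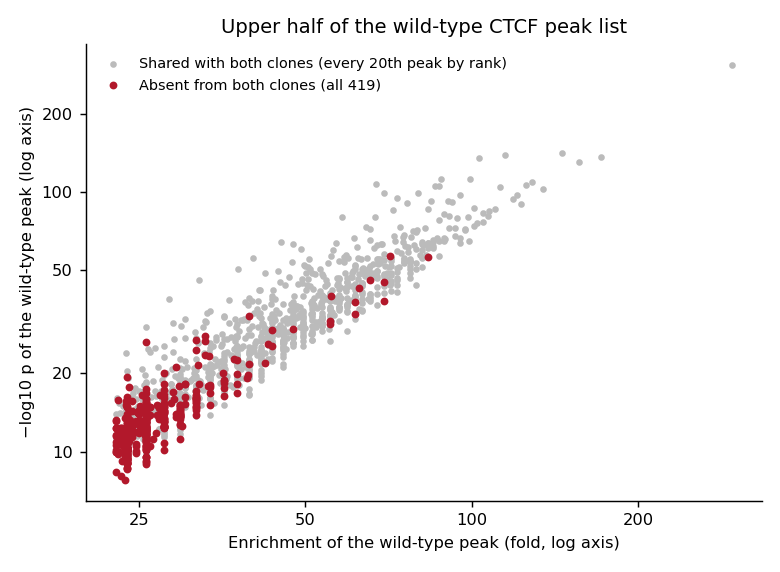
Each point is a wild-type peak, with its fold enrichment on the x axis and its −log10 p on the y axis (both log axes); red points are the 419 peaks absent from both clones, grey points are every 20th of the shared peaks by rank (947 plotted). The red points crowd at an enrichment of 23 to 30 and a −log10 p near 12, and few red points lie among the strong grey ones.

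The share of peaks absent from both clones fell steeply with enrichment and then stopped falling. With the 20135 peaks divided into 10 classes of equal size, the weakest class (enrichment 22.7 to 25.77) held 225 members, 11.2% of its peaks (9.83 to 12.6). The next classes upward held 103, 51, 15, 9 and 4 members, down to 0.199% in the fifth class (0.0542 to 0.508). The fourth class held 1 member. The 3 strongest classes then held 3, 7 and 1 members, 11 in all among 6040 peaks. In the strongest class that is 0.0497% (0.00126 to 0.276) and in the class after it 0.348% (0.140 to 0.715), so the intervals of the 5 strongest classes overlap and give no order among them.

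**Figure D2:**
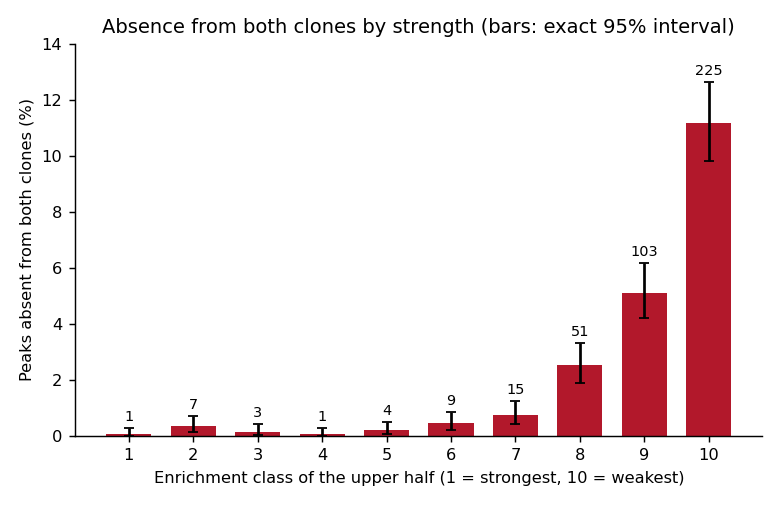
Bars give the percent of peaks that neither clone called in each of 10 enrichment classes of the stronger 20135 peaks, error bars are exact 95% binomial intervals, and the number above each bar counts the members. Class 10, the weakest, holds 225 of the 419 members, and classes 1 to 3 hold 11.

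Absence from both clones was the more frequent kind among the strongest peaks. Of the 20135 peaks, clone D missed 945 (4.69%) and clone C8 missed 680 (3.38%). The members were 44.3% of the peaks missed by clone D and 61.6% of those missed by clone C8. A further 526 peaks were missed by clone D alone and 261 by clone C8 alone. In the 3 strongest classes, 11 of 16 absences were from both clones, 4 were in clone D alone and 1 in clone C8 alone. In the other 7 classes, 408 of 1190 absences (34.3%) were from both clones, 522 were in clone D alone and 260 in clone C8 alone. These counts come from the contrast that chose the members and carry no test.

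The 11 strongest members had enrichments of 55.36 to 83.26, a −log10 p of 31.1 to 57.0 and widths of 230 to 691 bp. Positions are mm9, counted from 1. The first of them, on chromosome 9 (19379799 to 19380040), was 242 bp wide, with an enrichment of 83.26. It lay far from any call of the clones, 753717 bp from clone D's nearest peak and 305787 bp from that of clone C8. The peak on chromosome 6 (132413660 to 132413894, enrichment 69.39) was 235 bp wide and lay 185485 bp from clone D and 185501 bp from clone C8. A further narrow one, on chromosome 1 (45007980 to 45008209, enrichment 62.62), was 230 bp wide, with the clones' nearest peaks 204921 bp and 126010 bp away. The narrow strong members therefore stood in stretches where neither clone had a call for more than 100 kb on either side. Wild type had few peaks near them too. In the same order, the nearest other wild-type peak lay 22850, 176555 and 126889 bp away and was itself absent from both clones. The nearest shared peak lay 809531, 185497 and 205077 bp away. In that order, the nearest other wild-type peaks ranked 39417, 37600 and 34120 of 40271, so all were weak. Absence from both clones was frequent among weaker peaks, at 48.6% of those within 500 kb of shared peaks weighted to the members' enrichments.

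Most of the wider strong members lay nearer to peaks of the clones. On chromosome 18, the peak from 6667481 to 6668168 (enrichment 61.46) was 688 bp wide, and that from 26165076 to 26165670 (enrichment 55.66) was 595 bp wide. Their distances to clone D were 27830 bp and 8001 bp, and those to clone C8 were 27869 bp and 7993 bp. On chromosome 6 (18796550 to 18797240), a peak 691 bp wide with an enrichment of 55.36 lay 26781 bp from clone D and 26790 bp from clone C8. At these 3 sites the nearest clone D peak and the nearest clone C8 peak overlapped each other, so both clones had called the same neighbouring site. That was not particular to wide peaks: it held for the narrow chromosome 6 peak and for 67.8% of all members. The peak on chromosome 17 (56339231 to 56339595), 365 bp wide with an enrichment of 71.28, had a clone C8 peak at 363 bp and a clone D peak at 2576 bp. The peak on chromosome 1 (12634649 to 12635007, enrichment 69.39) lay 191720 bp from clone D and 191751 bp from clone C8. The other strong members, at 60240670 to 60240973 of chromosome 2, 174059276 to 174059668 of chromosome 1 and 115341065 to 115341557 of chromosome 5, lay 8940 to 14998 bp from clone D.

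Narrow peaks were more frequent among the strong members than among shared peaks of the same 3 classes. Of the 11, 3 were under 300 bp wide (27.3%, 6.02 to 60.97), against 43 of the 6024 shared peaks (0.714%, 0.517 to 0.960). The median width was 365 bp in these members and 527 bp in the shared peaks. A width of 590 bp or more was found in 3 of the 11 and in 1746 of the 6024 shared peaks, so wide peaks were not particular to these members. No shared peak lay within 100 kb of 4 of the 11 (36.4%, 10.9 to 69.2), against 260 of the 6024 (4.32%, 3.82 to 4.86). The intervals do not overlap in either comparison, but the 11 were chosen by lacking an overlap, so this is no test. Shared peaks were not weighted here. The 3 narrow peaks were among the 4 without a shared peak within 100 kb, so the comparisons are not separate.

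The next 9 members by enrichment had values of 47.58 down to 39.22, below the 55.36 of the weakest of the 11. They included the peaks on chromosome 14 (107474441 to 107474660, enrichment 47.58), chromosome 6 (10136306 to 10136536 and 140661241 to 140661649, both 43.61), chromosome 4 (83186269 to 83186704, 42.86) and chromosome 7 (105208446 to 105208796, 42.27). The remaining 4 lay on chromosome 11 (97806842 to 97807206, 39.65), chromosome 17 (4626092 to 4626670, 39.65, and 46920694 to 46921142, 39.43) and chromosome 1 (113793256 to 113793577, 39.22). Their distance to clone D ran from 237 bp, at the second chromosome 17 peak, to 467558 bp, at the chromosome 14 peak. Strong members with and without a clone call near by thus occurred side by side.

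The members' enrichments repeated a few exact values. In the wild-type list, the most frequent enrichments stood 1.98 apart, and 54.8% of all wild-type peaks lay on multiples of that spacing (within 0.01). Clone D had a spacing of 0.823 and clone C8 one of 1.29. Of the 419 members, 129 had an enrichment of exactly 23.79, 72 of 25.77 and 31 of 27.75, which are 12, 13 and 14 spacings. In all, 294 members (70.2%, 65.5 to 74.5) lay on the spacing. Among shared peaks weighted to the members' enrichments in 20 bins, 52.3% ± 0.717 (counting SE) did. Peaks missed by clone D alone (66.0%, 61.7 to 70.0) and by clone C8 alone (66.7%, 60.6 to 72.4) were nearer to the members. No source used here says what 1 spacing stands for.

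The same rule applied to the clones found fewer peaks, but the difference depended on the scale of strength. In the stronger part of each list by enrichment, neither other list overlapped 10 of 14884 peaks of clone D (0.0672%, 0.0322 to 0.124) or 25 of 16154 of clone C8 (0.155%, 0.100 to 0.228), against 2.08% in wild type. These parts were not of equal strength: the median −log10 p was 26.9 in wild type, 39.6 in clone D and 34.3 in clone C8. Among peaks of at least 12 spacings, the share was 1.91% in wild type (378 of 19749, 1.73 to 2.11), 2.88% in clone D (705 of 24510, 2.67 to 3.09) and 1.69% in clone C8 (374 of 22077, 1.53 to 1.87). Wild type then stood between the clones, and its interval overlapped that of clone C8. Wild-type peaks have 2 lists of the same genotype to be absent from, while a clone's peaks have one of each genotype, so the rule does not ask the same of each list.

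Counted in spacings, the shares of the wild-type and clone C8 lists were close below 26 spacings. From 12 to under 14 spacings the shares were 9.48% in wild type (8.39 to 10.7), 8.67% in clone C8 (7.65 to 9.78) and 15.2% in clone D (13.8 to 16.6). From 21 to under 26 spacings they were 0.139%, 0.0816% and 0.380%, with overlapping intervals. At 26 spacings or more, 11 of 6591 wild-type peaks were private (0.167%, 0.0833 to 0.298), against 1 of 11503 in clone D (0.00869%, 0.000220 to 0.0484) and 1 of 8660 in clone C8 (0.0115%, 0.000292 to 0.0643). On the scale of −log10 p, wild type was above both clones in every class. From 12 to under 15 the shares were 8.96%, 2.55% and 2.87% in wild type, clone D and clone C8, and at 30 or more they were 0.137% (0.0706 to 0.238), 0% (0 of 10537 peaks, an upper limit of 0.0350%) and 0.0205% (0.00248 to 0.0739). These shares use the values that chose the members, from 1 library per list, and describe the lists without a test.

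**Figure D3:**
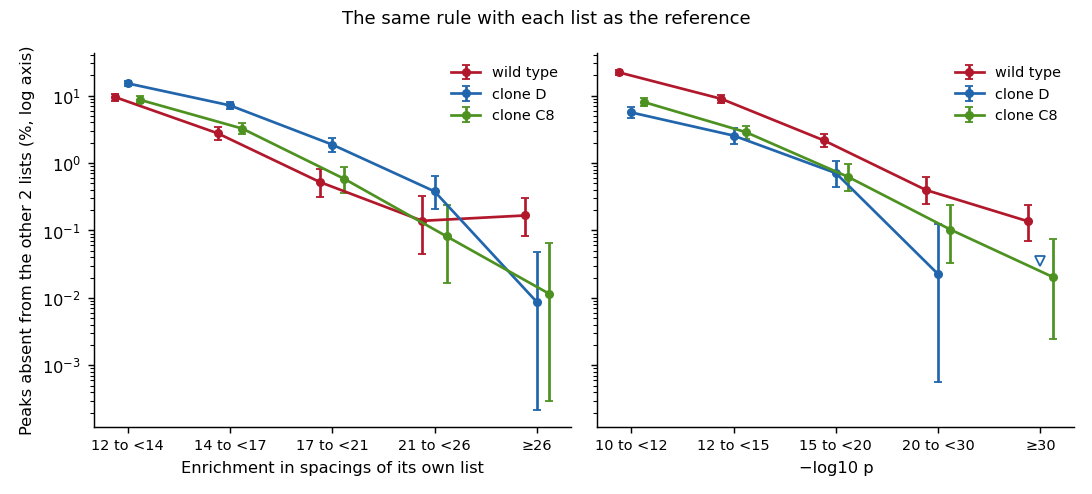
The percent of peaks absent from the other 2 lists (log axis) is plotted for each list by enrichment counted in spacings of that list (left) and by −log10 p (right); error bars are exact 95% binomial intervals, and the open triangle is the upper limit where no peak was private. On the left, wild type and clone C8 run together until the last class, where wild type is at 0.167% and the clones are at 0.00869% and 0.0115%; on the right, wild type lies above both clones throughout.

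Members were narrower than shared peaks of like enrichment. Their width ran from 183 to 717 bp with a median of 352 bp (95% interval of the median 337 to 370) and quartiles of 287 and 438 bp. The shared peaks weighted to the same enrichments had a median of 423 bp and quartiles of 358 and 498 bp. Of the members, 126 (30.1%, 25.7 to 34.7) were under 300 bp, against 8.50% ± 0.460 of the weighted shared peaks, and 11 (2.63%, 1.32 to 4.65) were 600 bp or more, against 6.73% ± 0.359. Peaks missed by 1 clone were intermediate, with medians of 387.5 bp (375 to 399) where clone D alone missed them and 385 bp (370 to 405) where clone C8 alone did. A narrow peak has less length to be overlapped, so width is not fully independent of the rule. When the wild-type list was ranked by −log10 p instead, 368 peaks were absent from both clones, 242 of them members, and their median width of 401.5 bp (380 to 423) had an interval that included the 419 bp of shared peaks of like −log10 p. The excess of narrow peaks was smaller there, with 22.0% (17.9 to 26.6) under 300 bp against 8.09% ± 0.489.

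**Figure D4:**
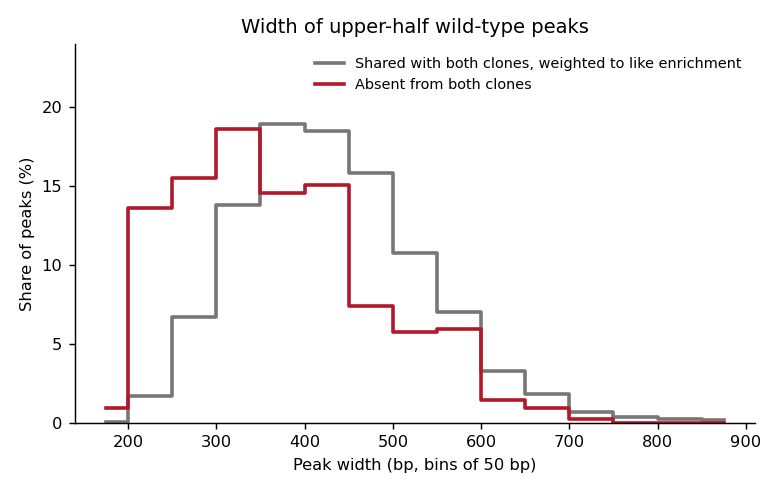
The lines give the share of peaks (y axis, percent) in width bins of 50 bp (x axis) for the members (red) and for shared peaks weighted to the members' enrichments (grey). The red line peaks from 300 to 350 bp, with 13.6% of members at 200 to 250 bp, where 1.70% of the weighted shared peaks lie.

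At like enrichment the members also had weaker support than shared peaks in the authors' other columns. The median −log10 p was 12.4 (12.0 to 12.6) in the members and 14.7 in the weighted shared peaks, and the median false discovery rate was 0.0275 against 0.0127. A rate of at most 0.05 was reached by 74.5% of members (70.0 to 78.6) and by 89.9% ± 0.541 of the weighted shared peaks. A −log10 p of at least 20 was reached by 7.40% (5.08 to 10.3) and 16.9% ± 0.410. These columns come from the wild-type peak calls alone, not from the clones. Peaks missed by 1 clone, weighted likewise, were close to the members in −log10 p. Its median was 12.6 where clone D alone missed them and 12.8 where clone C8 alone did. A value of at least 20 was reached by 7.878% ± 0.841 and 3.902% ± 0.848 of them. The rate was at most 0.05 in 79.9% ± 2.03 and 81.3% ± 2.57, between the members and the shared peaks. The low −log10 p was thus not particular to the members.

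Members lay somewhat farther from shared sites than shared sites lay from each other. The median distance to the nearest shared peak was 18260 bp (14283 to 22703) for members and 13998 bp for the weighted shared peaks. A shared peak lay within 10 kb of 34.8% of members (30.3 to 39.6), against 40.9% ± 0.768, and 71 members (16.9%, 13.5 to 20.9) had none within 100 kb, against 9.29% ± 0.460. Local peak density was similar: members had a median of 25 (23 to 28) other wild-type peaks within 500 kb and the weighted shared peaks 25. The nearest other wild-type peak of any kind lay at a median of 9629 bp (7239 to 11813) and 10113 bp. The difference thus concerned shared neighbours and not the number of neighbours. Without weighting, peaks missed by a single clone were not set apart from the members in this. Where clone C8 alone missed them, the median distance was 18218 bp (14746 to 20479), and 11.1% (7.57 to 15.6) had no shared peak within 100 kb. Where clone D alone did, the values were 13801.5 bp (12546 to 15510) and 14.4% (11.6 to 17.7). All these intervals overlapped those of the members. Weighted to the members' enrichments, 13.4% ± 1.64 (clone D alone) and 9.72% ± 1.85 (clone C8 alone) had no shared peak within 100 kb. The clone C8 value was then near the 9.29% of the weighted shared peaks and below the members' interval.

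Neighbours of members were more often absent from the clones themselves. The nearest other wild-type peak was absent from both clones for 130 members (31.0%) and for 20.5% ± 0.627 of the weighted shared peaks, and it was shared for 247 members (58.9%) and for 69.5% ± 0.717. Among wild-type peaks weaker than the enrichment limit and within 500 kb, 53.3% around members and 48.6% around the weighted shared peaks were absent from both clones. Around weighted peaks missed by clone D alone the share was 50.2%, and by clone C8 alone 47.5%. These shares have no interval, since a weak peak near several members was counted each time. The start of chromosome 14, described below, was not set apart. On average, members had 22.6 clone D and 24.6 clone C8 peaks within 500 kb, and the weighted shared peaks, each counted with its own clone peak, had 24.2 and 25.7.

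A clone peak just beside a member was rare, as a near neighbour was for shared peaks too. Another shared peak lay within 1000 bp of 6.86% ± 0.394 of the weighted shared peaks, and a shared peak of 4.53% of members (2.75 to 6.99). A peak of either clone lay within 1000 bp of 26 members (6.21%) and within 250 bp of 8. For 23 of those 26, the nearest clone peak overlapped another wild-type peak, so wild type had both that site and the member beside it. The nearest of all was on chromosome X (103393694 to 103394226, enrichment 23.79), 80 bp from a clone D peak and 133 bp from a clone C8 peak. Next came peaks at 121848539 to 121848723 of chromosome 2, 8733027 to 8733239 of chromosome 16, 45814297 to 45814689 of chromosome 17 and 113825628 to 113826013 of chromosome 8, all 91 to 220 bp from clone D. For 284 members (67.8%) the nearest clone D peak and the nearest clone C8 peak overlapped each other, a share that was not set against other peaks.

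At the other end, 12 members had no other peak of any list within 100 kb. The 5 members farthest from a shared peak spanned 118552701 to 118553238 of chromosome X, 81750880 to 81751437 of chromosome 16, 117446468 to 117446837 of chromosome 1, 81813230 to 81813794 of chromosome 5 and 92048724 to 92049043 of chromosome 11. Their distances to a shared peak were 2846142, 2582037, 2462442, 2055328 and 1453462 bp. All 5 were weak members, with enrichments of 23.66 to 25.77. The chromosome X member had a clone C8 peak at 6322 bp while the nearest clone D peak was 1386453 bp away. At the chromosome 16 member, in contrast, the clones' nearest peaks overlapped each other, 419732 bp from it (clone D) and 419814 bp (clone C8).

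Members had another member near by more often than shared peaks did at short range, and about as often within 1 Mb. Another member lay within 10 kb of 14 members (3.34%, 1.84 to 5.54), against 0.666% ± 0.119 of the weighted shared peaks with a member that near. Within 100 kb the shares were 12.2% (9.20 to 15.7) and 7.41% ± 0.411, and within 1 Mb they were 41.3% (36.5 to 46.2) and 39.7% ± 0.766. The members' share within 100 kb was lower for some other choices of members. It was 7.88% when ranked by −log10 p (368 members) and 8.01% with a wild-type false discovery rate of at most 0.05 (312 members). It was 0% in the stronger 25% of the list (16 members) and where −log10 p was 20 or more (31 members). Fewer members leave fewer to lie near each other. The shared peaks' share was not recalculated for these choices, so they do not show whether clustering changed. The 14 members formed 7 pairs, 372 to 8413 bp apart, and none of the 7 had a clone peak within 1000 bp. The closest pair lay on chromosome 1 (9225169 to 9225766 and 9226139 to 9226661), at enrichments of 25.77 and 32.89 and a −log10 p of 13.8 and 27.8, and the nearest clone peak was 3321 bp away. Another pair, on chromosome 3 (156462661 to 156463111 and 156467430 to 156467808) lay 155324 bp from any clone peak. Peaks this close may not be independent sites. Both members of a pair are counted, so the intervals for members near another member are too narrow.

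**Figure D5:**
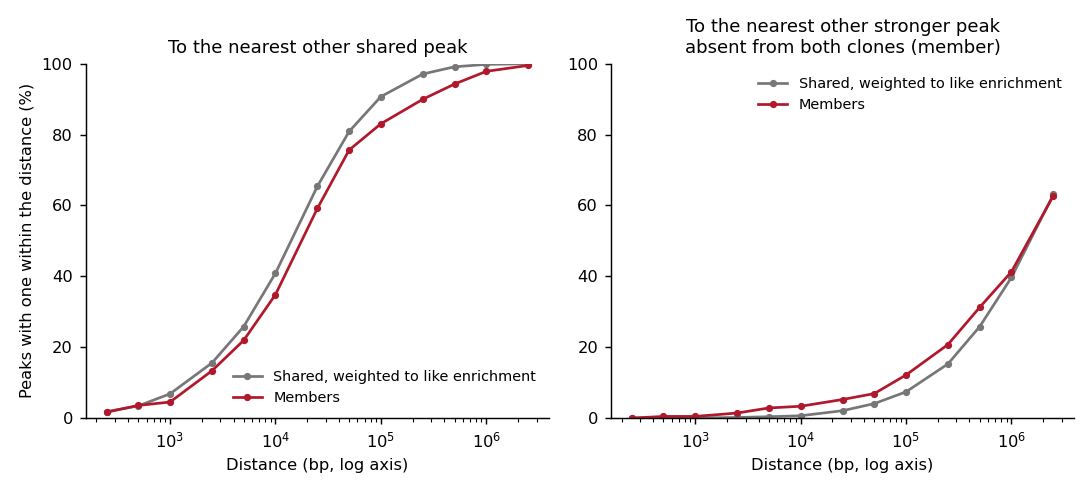
The curves give the percent of peaks (y axis) with a shared peak other than itself (left) or another member (right) within a distance in bp (x axis, log axis), for members (red) and for shared peaks weighted to the members' enrichments (grey). On the left the red curve runs below the grey one from 1000 bp upward; on the right it runs above it from 500 to 500000 bp, and the curves meet near 1000000 bp.

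Linking members at most 100 kb apart gave 24 clusters that held 51 members, of which 22 were pairs. The largest, on chromosome 9 (65831982 to 66006007), held 4 members with enrichments of 23.79 to 33.0 among 10 wild-type peaks, 5 of them shared, and each clone had 6 peaks there. The second, on chromosome 11 (51869202 to 51904931), held 3 of 4 wild-type peaks, and each clone had 1. The clusters next in order were pairs on chromosome 7 (105208446 to 105299587 and 19639567 to 19717385) and chromosome 17 (46920694 to 46987582). The chromosome 17 cluster held 5 wild-type peaks, of which none was shared, with 0 peaks in clone D and 1 in clone C8. These counts cover only the stretch between the outer members, and shared sites lay just outside it. The first member had a shared peak at 293 bp and a clone D peak at 237 bp. The second had a shared peak at 1517 bp and a clone D peak at 1447 bp. Of the 2 Mb windows with a stronger peak, 898 held no member, 238 held 1, 65 held 2, 9 held 3, 1 held 4 and 4 held 5.

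Every autosome and chromosome X held members, and chromosome 14 had the highest share. On chromosome 14, 30 of 779 stronger peaks were members (3.851%, 2.61 to 5.45), where 18.5 were expected from their enrichments and the share over all chromosomes. Chromosome X followed with 16 of 484 (3.31%, 1.90 to 5.31; 13.6 expected). The lowest shares were on chromosome 12 (9 of 790, 1.14%, 0.522 to 2.15; 15.997 expected) and chromosome 19 (8 of 670, 1.19%, 0.517 to 2.34; 13.4 expected). The interval of chromosome 14 lay above those of chromosomes 1, 8, 12 and 19, and most other intervals overlapped. Chromosome 11 held the most members, 43 of 1697 (2.53%; 35.8 expected), and chromosome 18 held 8 of 550 (1.45%; 12.0 expected). At like enrichment, the share on chromosome X was 3.82% of members (2.20 to 6.13) and 2.92% ± 0.261 of the weighted shared peaks, which does not separate them.

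The start of chromosome 14 carried much of that excess. In the segment from 2000001 to 8000000, 7 of the 13 stronger wild-type peaks were members (53.8%, 25.1 to 80.8), where 0.516 were expected, and 2 were shared. The whole lists differed there too, with 280 peaks in wild type, 90 in clone C8 and 6 in clone D. Without it, 23 of 766 stronger peaks of chromosome 14 were members (3.00%, 1.91 to 4.47; 18.0 expected), and that interval overlapped those of the other chromosomes with the lowest shares. The 7 members were wide for members, from 436 to 650 bp, and had enrichments of 22.77 to 33.32. The strongest of them (3758500 to 3759115) lay 20871 bp from clone D and 20810 bp from clone C8. The one from 6747086 to 6747725 lay 4012 bp from a clone C8 peak and 1129452 bp from a clone D peak. No 2 of the 7 were nearer to each other than 308634 bp, so they were spread along the segment. The segment on chromosome X from 26000001 to 32000000, with 59 peaks in wild type, 33 in clone C8 and 5 in clone D, held 11 stronger peaks and no member (0.846 expected). Gene families in these segments, the sequences of the members and their CTCF motifs were not analysed here, since no mm9 genome or annotation was used.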

How the data were processed

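Reads were handled with Bowtie 1.0.0 and bcl2fastq 1.8.4 on build mm9, per the submitters' processing notes; no source used here names the peak caller or says how it used the inputs. Each ChIP library has its own list deposited by the authors, so peaks were not called on pooled libraries. Columns 7 to 9 were read, from the broadPeak layout and from their values, as the authors' fold enrichment (a ratio), the authors' −log10 p and the authors' false discovery rate (a q-value as a fraction); no header names them. The 3 input libraries were not used here. Depth is unknown, since the lists hold no read totals.

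Peaks were ranked by enrichment (ties by chromosome, then start), and overlap was 1 bp or more. Shared peaks were weighted to the members' spread over 20 enrichment bins; SEs of weighted shares and exact binomial 95% intervals cover counting error only, and no test was run with 1 library per group. The spacing came from the 16 most frequent enrichments of a list. Named regions were the 20 members of highest enrichment, those nearest to and farthest from other peaks, those at the limit, members with a −log10 p of at least 40 and the 5 largest clusters; pairs, segments, chromosomes and other positions were chosen after their values were seen. Members and comparisons were chosen with earlier results of these data known. Alternatives are given in the closing section. Python 3.11.15, pandas 2.3.3, numpy 2.4.6, SciPy 1.17.1 and matplotlib 3.10.9 were used; bedtools 2.31.1 gave the same 419 members. On simulated clone lists made from the wild-type list, all 300 planted absences among 20135 peaks were recovered and 0 others were called. The retained peaks were only shifted slightly at unchanged width. The simulation therefore checks the overlap code and cannot show how often absences in the real lists are false.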

Additional observations from a re-analysis of the deposited data

How the results depend on the processing

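Of 104 values under an alternative, 67 stayed within their 95% interval (counts: a factor of 1.5; weighted widths: 10 bp) and 37 moved. Thresholds of at least 12 spacings, equal peak numbers, a −log10 p of at least 20 and a distance of 1000 bp were chosen after seeing the data. In the stronger 25% of the wild-type list there were 16 members (0.159%), with 0% near another member (within 100 kb) and 0% on chromosome X. At a −log10 p of at least 20 there were 31 (0.225%), with a median width of 427 bp, 0% near another member, 0% on chromosome X and 29.0% with a shared peak within 10 kb. Ranking by −log10 p gave 1.83%, 401.5 bp, 7.88% near another member and 27.7% near a shared peak. Shared peaks weighted by −log10 p to the members had a median width of 408 bp (members 352 bp), 39.3% lay near another shared peak, and 4.27% lay on chromosome X, now above the members' 3.82%. The percent of members was 2.60% with a reciprocal overlap of 50% (16.03% near another member), 1.59% with a wild-type rate of at most 0.05 (8.01% near another member), 2.94% with a clone rate of at most 0.05 and 2.38% with clone lists of equal length. Leaving out each clone gave 680 to 945 members (3.38 to 4.69%), widths of 368.5 to 374 bp and 15.4 to 19.6% near another member, as a single list then decides. Linking at 50 kb gave 14 clusters and at 500 kb 59. Private shares at 12 spacings were 2.88% in clone D and 1.69% in clone C8. At a −log10 p of at least 20 they were 0.00723% and 0.0286%. With as many peaks as the stronger part of clone D (14884), wild type had 0.403%.

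No paired analysis was possible because each group is 1 library without a replicate number in its labels, and no test was run. The planned analyses of genes, sequence and motif were not run without an mm9 genome or annotation. Depth is unknown, and its part in the absences was not tested.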
